A study of Mus musculus with 12 samples.

Results

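The 10 genes described here are the endoplasmic reticulum (ER) chaperones and targets of the transcription factor XBP1 that were listed by name: Hspa5, Hsp90b1, Xbp1, Dnajb9, Dnajc3, Herpud1, Sdf2l1, Pdia4, Calr, and Manf. All 10 were found by Ensembl identifier among the 12591 genes with values. The cells were immortalized mouse embryonic fibroblasts of the C57 PER2::LUC strain, derived from animals heterozygous for a luciferase tag on the clock protein PER2, and they were grown to confluence in 3 dishes per group. For 24 h the dishes received 10 µM Deazaneplanocin A (DZ, an inhibitor of the enzyme AHCY, which breaks down S-adenosylhomocysteine), 1 mM adenine, 1 mM S-adenosylmethionine (SAM, the methyl donor of the cell), or no compound (CTL). Because adenine was dissolved in HCl, all 4 groups, CTL included, contained 3.3 mM HCl. Polyadenylated RNA was sequenced, and the comparisons ask how each compound, and SAM set directly against adenine, changed the RNA levels of these genes.

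Proteins that enter the ER are folded by chaperones, fitted with disulfide bonds by isomerases, and sent back to the cytosol for degradation when they fail to fold. The load is sensed by IRE1, PERK, and ATF6, which together drive the unfolded protein response (UPR). IRE1 splices the Xbp1 RNA so that it encodes an active factor, ATF6 is cut free from the membrane to become one, and both raise the transcription of chaperone genes, whereas PERK slows translation and favours that of ATF4. Fibroblasts secrete large amounts of matrix protein and depend on this machinery.

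Levels are given as log2 CPM, in which the reads on a gene are divided by the normalized size of its library, and a gene was called when limma gave it an adjusted p under 0.01. Depth lay between 45649534 and 56789090 reads per library, and the lowest of the 10 genes, Sdf2l1, still had between 204 and 491 reads in each dish. In total RNA of a dish, fewer cells and less RNA per cell cannot be told apart. The fibroblast label was checked by its markers, of which 8 of 10 had values, with a summed level of 21980 to 22420 CPM in CTL, 27800 to 28390 in DZ, 24630 to 26910 in adenine, and 16330 to 17660 in SAM. The lower sum in SAM goes with Fn1, the most abundant of the 8 in CTL, which fell by 1.58, whereas the other 7 rose (median of the 8, 0.41). No epithelial (of 5) or endothelial (of 4) marker was among the genes analysed here, and of 6 leukocyte markers only Cd68 was. Cd68 lay at 3.03 to 4.0 CPM in CTL, 2.735 to 3.785 in DZ, 10.83 to 12.35 in adenine, and 15.6 to 17.7 in SAM. The part of these marker shifts in the results was not tested. SAM replicate 3 stood apart from the other SAM dishes, as its chi-square over the genes, per degree of freedom, was 19.1 and 15.7 against replicates 1 and 2, where all other replicate pairs of a group lay between 4.76 and 7.07.

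Promoter sequences are shown because the 10 genes did not move together. Since the genes were listed as ER chaperones and XBP1 targets, elements that XBP1 or ATF6 bind are tied to their selection, and the counts of matches are a description, not a finding. The windows run from 250 bases before to 50 bases after the transcription start in RefSeq (build GRCm38.p6), and 9 of the 10 genes had an entry. The ER stress response element (ERSE, letters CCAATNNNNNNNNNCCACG) is known to bind NF-Y and ATF6 or XBP1, and on either strand it was found in 4 of these 9 windows, against 0.119% of 32851 promoters of the same length. The shorter ERSE-II (ATTGGNCCACG) was found in the window of Herpud1 and in 0.0365% of all promoters. The letters TGACGTGG, a form of the element called UPRE, were in none of the 9 windows and in 0.676% of all. Other forms of the UPRE were not searched for. With 1 mismatch allowed in the 10 fixed letters of the ERSE, 6 windows matched, against 1.50% of all promoters. The 5 windows with a match are those of Hspa5 (chr2:34771840-34772139, plus strand), Hsp90b1 (chr10:86705395-86705694, minus strand), Dnajc3 (chr14:118937682-118937981, plus strand), Calr (chr8:84846882-84847181, minus strand), and Herpud1 (chr8:94386179-94386478, plus strand). They are printed 5′ to 3′ along the gene, with the matching letters in capitals.
Hspa5: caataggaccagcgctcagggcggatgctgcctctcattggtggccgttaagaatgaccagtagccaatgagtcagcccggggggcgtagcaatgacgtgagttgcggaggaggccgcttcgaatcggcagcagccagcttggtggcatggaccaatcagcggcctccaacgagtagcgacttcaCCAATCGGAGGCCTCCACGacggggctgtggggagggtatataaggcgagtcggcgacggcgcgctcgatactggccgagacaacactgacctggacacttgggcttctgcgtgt
Hsp90b1: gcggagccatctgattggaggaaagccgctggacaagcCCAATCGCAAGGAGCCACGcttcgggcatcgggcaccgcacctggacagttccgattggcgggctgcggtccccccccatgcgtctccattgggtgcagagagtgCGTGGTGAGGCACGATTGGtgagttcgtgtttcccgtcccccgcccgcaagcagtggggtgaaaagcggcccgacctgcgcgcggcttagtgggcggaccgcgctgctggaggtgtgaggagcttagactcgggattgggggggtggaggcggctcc
Dnajc3: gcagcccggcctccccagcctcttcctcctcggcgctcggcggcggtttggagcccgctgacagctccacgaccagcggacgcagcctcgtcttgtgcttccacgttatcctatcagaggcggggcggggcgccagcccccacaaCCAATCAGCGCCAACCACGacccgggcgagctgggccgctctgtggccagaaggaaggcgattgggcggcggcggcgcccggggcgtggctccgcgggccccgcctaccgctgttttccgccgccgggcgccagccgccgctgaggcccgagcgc
Calr: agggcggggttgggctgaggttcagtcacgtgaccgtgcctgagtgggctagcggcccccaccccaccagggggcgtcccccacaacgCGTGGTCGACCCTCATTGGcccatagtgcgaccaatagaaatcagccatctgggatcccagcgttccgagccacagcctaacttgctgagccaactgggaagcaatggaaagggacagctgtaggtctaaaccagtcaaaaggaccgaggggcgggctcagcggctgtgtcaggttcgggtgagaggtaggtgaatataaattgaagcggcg
Herpud1: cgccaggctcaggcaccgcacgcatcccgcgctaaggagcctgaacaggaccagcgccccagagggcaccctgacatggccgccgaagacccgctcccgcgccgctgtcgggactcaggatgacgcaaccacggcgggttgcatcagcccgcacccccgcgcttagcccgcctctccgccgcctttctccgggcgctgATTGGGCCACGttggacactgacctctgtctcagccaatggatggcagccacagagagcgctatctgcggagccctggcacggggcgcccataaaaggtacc
The Hspa5 match ended 46 bases before the start site, that of Herpud1 41 bases, and that of Dnajc3 86 bases. In Calr the match lay on the opposite strand, 143 bases before the start, so that its capitals read as the reverse complement. Hsp90b1 held 2 matches, one on its own strand 193 bases and one on the opposite strand 88 bases before the start. A match is a description of the letters only, and as the results below show, genes with the same element moved in opposite directions under SAM.

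Read per kilobase of annotated exon, Hsp90b1 was the highest of the 10 genes in CTL, with 174 +/− 3.00 CPM per kilobase (SD, n = 3), followed by Hspa5 with 152 +/− 1.80 and Calr with 138 +/− 0.18. Herpud1 reached 67.4 +/− 3.28 CPM per kilobase, and the other 6 genes lay between 4.58 (Sdf2l1) and 15.7 (Dnajc3). Dnajc3 and Pdia4, at 15.7 +/− 0.482 and 15.4 +/− 0.162, did not differ beyond their spread, nor did Manf and Sdf2l1, at 4.93 +/− 0.333 and 4.58 +/− 0.540. The order depends on the length used, since per kilobase of mean transcript length Calr (314) stood above Hspa5 (263) and Manf moved from rank 9 to rank 5.

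**Figure D1:**
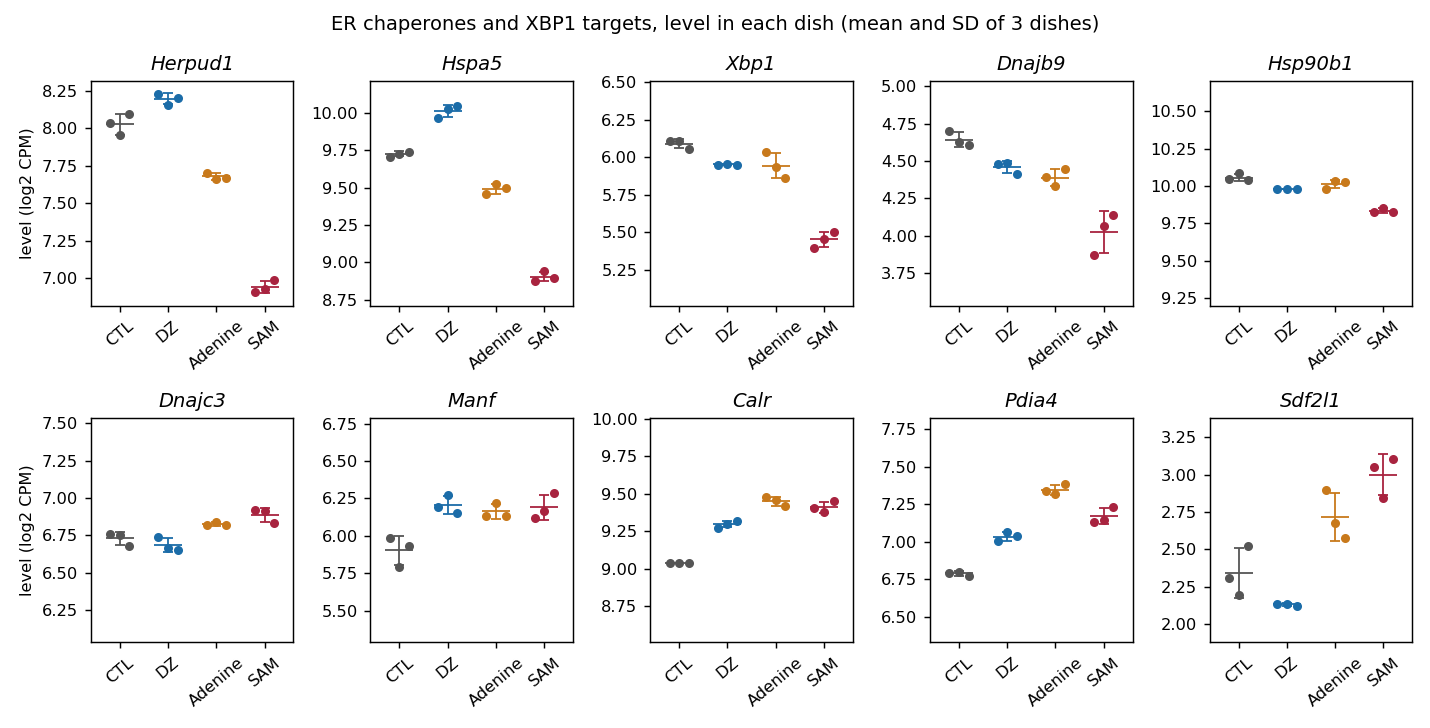
Level of each of the 10 genes (y axis, log2 CPM, the same span of 1.5 in every panel) in the 3 dishes of each group (x axis). Points are dishes, and bars are the mean and SD. Herpud1, Hspa5, Xbp1, and Dnajb9 were lowest in SAM, whereas Pdia4, Calr, and Manf were lowest in CTL.

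Under SAM the 10 genes split evenly, with 5 lower (Herpud1, Hspa5, Xbp1, Dnajb9, and Hsp90b1) and 5 higher (Sdf2l1, Pdia4, Calr, Manf, and Dnajc3) than CTL. Changes on the log2 scale ran from -1.09 (Herpud1) to 0.66 (Sdf2l1). All 10 were called, against 69.3% of all genes tested (33.7% higher and 35.7% lower), so that the share called is above a background that was itself high. Adenine gave the same split in part, with 4 higher (Pdia4, Calr, Sdf2l1, and Manf) and 4 lower (Herpud1, Dnajb9, Hspa5, and Xbp1), against 61.6% of all genes called (30.6% higher and 31.0% lower). DZ raised 5 genes (Manf, Hspa5, Calr, Pdia4, and Herpud1), against 45.9% of all genes called (22.6% higher and 23.4% lower). None of the 10 was called lower under DZ by limma, nor by voom on the reads, while 3 were lower at an unadjusted p under 0.05. The median change of the 10 genes was 0.062 under DZ, 0.027 under adenine, and -0.031 under SAM, beside -0.0057, -0.0030, and -0.015 for all genes. The 3 comparisons share the CTL dishes. Scaling by plain read totals moved the median of all genes under SAM to 0.11 and that of the 10 genes to 0.092, left the 5 to 5 split in place, and raised the share of higher genes among all calls from 48.5% to 61.2%.

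**Figure D2:**
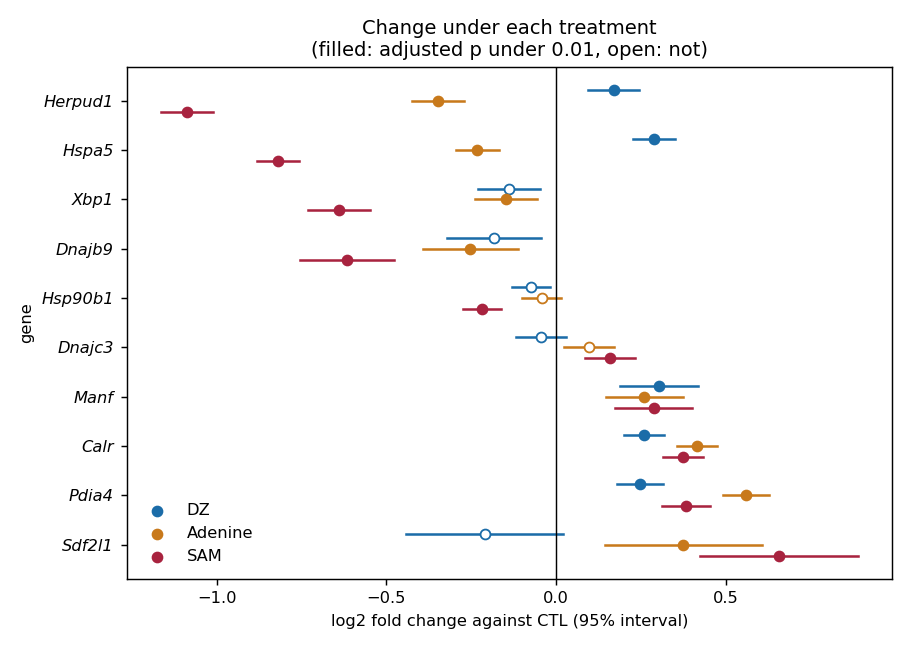
Log2 fold change against CTL (x axis) of each gene (y axis) under DZ, adenine, and SAM, with the 95% interval of the limma fit. Filled points had an adjusted p under 0.01. Manf, Calr, and Pdia4 were higher under all 3 compounds, and Hspa5 and Herpud1 were higher under DZ but lower under adenine and SAM.

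Hspa5 (ENSMUSG00000026864, GRCm39 chr2:34661982-34668880) encodes BiP, the major Hsp70 chaperone of the ER, which also holds the UPR sensors inactive. Its levels were 9.71, 9.73, and 9.74 log2 CPM in the CTL dishes, 9.97, 10.03, and 10.04 in DZ, 9.46, 9.52, and 9.50 in adenine, and 8.88, 8.94, and 8.90 in SAM. No groups overlapped, and the order from low to high was SAM, adenine, CTL, DZ. Hspa5 rose by 0.29 +/− 0.029 (log2 fold change and SE) under DZ, with an adjusted p of 8.92e-07. It fell by 0.23 +/− 0.029 under adenine (adjusted p 3.57e-06) and by 0.82 +/− 0.029 under SAM (adjusted p 8.5e-13), to 0.567 times the CTL level. The fall under SAM exceeded that under adenine by 0.59 (95% interval of the difference -0.65 to -0.53, adjusted p 3.49e-10).

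The co-chaperones that serve BiP did not follow it as a group. Dnajb9 (ENSMUSG00000014905, chr12:44252341-44257171), a J-domain protein known to return IRE1 to BiP, measured 4.70, 4.63, and 4.60 log2 CPM in CTL, 4.48, 4.49, and 4.41 in DZ, 4.39, 4.33, and 4.45 in adenine, and 3.87, 4.07, and 4.14 in SAM. Dnajb9 fell by 0.62 +/− 0.065 under SAM (adjusted p 3.85e-07) and by 0.25 +/− 0.065 under adenine (adjusted p 0.00278). Under DZ its change was -0.18 with an adjusted p of 0.0259, although the 3 DZ dishes lay below the 3 CTL dishes. The adenine call was lost without CTL replicate 1 (adjusted p 0.0151) or adenine replicate 2 (0.0156), and with plain read totals (0.0181).

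Dnajc3 (ENSMUSG00000022136, chr14:119175317-119219115), another J-domain partner of BiP and an inhibitor of PERK, moved little. Its levels were 6.76, 6.75, and 6.68 log2 CPM in CTL, 6.74, 6.67, and 6.65 in DZ, 6.82, 6.84, and 6.82 in adenine, and 6.92, 6.91, and 6.84 in SAM. It rose by 0.16 +/− 0.035 under SAM (adjusted p 0.000651). The values under adenine, 0.097, and DZ, -0.045, did not pass (adjusted p 0.0212 and 0.283), the former passing with plain read totals at 0.16. In the order DZ, CTL, adenine, SAM, no neighbours were called apart, while DZ minus adenine was -0.14 (adjusted p 0.0018), a call lost with median centring (0.0152) and without DZ replicate 3 (0.0114).

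Sdf2l1 (ENSMUSG00000022769, chr16:16948002-16950252) encodes a luminal partner of the ER J-domain proteins and is a small gene with few reads. It measured 2.31, 2.20, and 2.53 log2 CPM in CTL, 2.14, 2.14, and 2.12 in DZ, 2.89, 2.68, and 2.58 in adenine, and 3.05, 2.84, and 3.10 in SAM. Adenine and SAM dishes lay above all CTL dishes and overlapped each other. The rise under SAM was 0.66 +/− 0.11 (adjusted p 4.93e-05, 1.58 times CTL), the largest rise among the 10 genes in any comparison with CTL. That under adenine, 0.37 +/− 0.11 (adjusted p 0.00618), was lost without CTL replicate 1 or 2 (0.0209 and 0.0339), without adenine replicate 1 or 2 (0.0397 and 0.0128), with median centring (0.0139), and in a fit of these 2 groups alone (0.0118). The value under DZ was -0.21 with an adjusted p of 0.109.

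Manf (ENSMUSG00000032575, chr9:106715511-106769727), an ER protein that binds BiP and is also secreted as a trophic factor, was higher under every compound by nearly the same amount. Levels were 5.98, 5.79, and 5.93 log2 CPM in CTL, 6.19, 6.27, and 6.15 in DZ, 6.14, 6.22, and 6.14 in adenine, and 6.12, 6.16, and 6.29 in SAM. All 9 treated dishes lay above the 3 CTL dishes. Manf rose by 0.30 under DZ, 0.26 under adenine, and 0.29 under SAM, each with an SE of 0.053 and adjusted p of 0.000191, 0.000441, and 0.000156. The treatments were not called apart, with 95% intervals of -0.087 to 0.14 for SAM minus adenine, -0.071 to 0.16 for DZ minus adenine, and -0.098 to 0.13 for DZ minus SAM.

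Hsp90b1 (ENSMUSG00000020048, chr10:86526073-86541446) encodes GRP94, the Hsp90 of the ER, which matures integrins and Toll-like receptors. Its levels were 10.04, 10.08, and 10.04 log2 CPM in CTL, 9.98 in each DZ dish, 9.98, 10.03, and 10.03 in adenine, and 9.82, 9.86, and 9.83 in SAM. The SAM dishes were below all others. Hsp90b1 fell by 0.22 +/− 0.026 under SAM (adjusted p 1.61e-06). The values of -0.075 under DZ and -0.043 under adenine did not pass (adjusted p 0.0245 and 0.16), and the latter turned to 0.019 with plain read totals and was called with median centring at -0.094.

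Calr (ENSMUSG00000003814, chr8:85567946-85573667) encodes calreticulin, the calcium-binding lectin that retains glycoproteins until they fold. It measured 9.04 log2 CPM in each CTL dish, 9.27, 9.30, and 9.32 in DZ, 9.48, 9.46, and 9.42 in adenine, and 9.40, 9.38, and 9.45 in SAM. Every treated dish lay above CTL, and adenine and SAM overlapped. Calr rose by 0.26 under DZ, 0.41 under adenine, and 0.37 under SAM, each with an SE of 0.027 and adjusted p of 1.3e-06, 1.97e-09, and 4.81e-09. SAM minus adenine was -0.041, with a 95% interval of -0.099 to 0.018.

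Pdia4 (ENSMUSG00000025823, chr6:47770077-47790462), a protein disulfide isomerase, measured 6.79, 6.80, and 6.77 log2 CPM in CTL, 7.0, 7.06, and 7.04 in DZ, 7.34, 7.32, and 7.39 in adenine, and 7.13, 7.15, and 7.23 in SAM. The 4 groups did not overlap, and from low to high they were CTL, DZ, SAM, adenine. Pdia4 rose by 0.25 under DZ, 0.56 under adenine, and 0.38 under SAM, each with an SE of 0.032 and adjusted p of 1.21e-05, 3.93e-10, and 2.76e-08. SAM minus adenine was -0.18 (adjusted p 0.000312), so that Pdia4 was lower in SAM than in adenine although higher than CTL in both.

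Herpud1 (ENSMUSG00000031770, chr8:95113022-95123141), a membrane protein that organizes ER-associated degradation, showed the widest range of the 10. Its levels were 8.03, 7.95, and 8.09 log2 CPM in CTL, 8.23, 8.16, and 8.20 in DZ, 7.70, 7.66, and 7.67 in adenine, and 6.91, 6.92, and 6.99 in SAM. The groups did not overlap and stood in the same order as for Hspa5. Herpud1 rose by 0.17 +/− 0.036 under DZ (adjusted p 0.000847), and fell by 0.35 +/− 0.036 under adenine (adjusted p 3.29e-07) and by 1.09 +/− 0.036 under SAM (adjusted p 3.06e-13), to 0.471 times CTL. SAM minus adenine was -0.74 (adjusted p 2.36e-10).

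Xbp1 (ENSMUSG00000020484, chr11:5470606-5483027) encodes the factor that many of the others are targets of. The table holds gene totals, so that the spliced and unspliced forms were not told apart. Levels were 6.11, 6.11, and 6.06 log2 CPM in CTL, 5.95, 5.96, and 5.95 in DZ, 6.04, 5.93, and 5.86 in adenine, and 5.40, 5.46, and 5.50 in SAM. SAM lay below all other dishes, and DZ and adenine overlapped. Xbp1 fell by 0.64 +/− 0.043 under SAM (adjusted p 1.56e-09). Its fall of 0.15 under adenine (adjusted p 0.0063) was lost without CTL replicate 1 or 2 (0.0232 each), without adenine replicate 2 or 3 (0.0216 and 0.0419), with plain read totals (0.0919), and with no variance trend (0.0123). The value under DZ, -0.14, missed the threshold (adjusted p 0.0123) and passed in a fit of these 2 groups alone (0.00299).

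With the calls of Xbp1 and Dnajb9 lost, the count of 4 genes lower under adenine went to 2 without CTL replicate 1 or adenine replicate 2, while the counts under SAM were 5 and 5 whichever dish was left out. Without SAM replicate 3, the changes under SAM were -1.11 for Herpud1, -0.82 for Hspa5, -0.68 for Dnajb9, -0.67 for Xbp1, and -0.22 for Hsp90b1. The rises were 0.61 for Sdf2l1, 0.35 for both Calr and Pdia4, 0.24 for Manf, and 0.19 for Dnajc3, and the 6 falls from adenine to SAM were called as well.

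Set directly against adenine, SAM had 6 of the 10 genes lower (Herpud1, Hspa5, Xbp1, Dnajb9, Hsp90b1, and Pdia4), against 42.7% of all genes called and 22.0% called lower. None was called higher by limma (20.8% of all genes were) or by voom, and 1, Sdf2l1, was higher at an unadjusted p under 0.05. SAM minus adenine was -0.49 for Xbp1 (adjusted p 1.96e-07), -0.36 for Dnajb9 (0.000254), and -0.18 for Hsp90b1 (4.73e-05). Hence for the 4 genes lower under both compounds the fall under SAM was the larger, whereas the rises of Calr and Manf were not called apart. DZ against adenine gave 2 higher (Hspa5, 0.52, and Herpud1, 0.52) and 4 lower (Sdf2l1, Pdia4, Calr, and Dnajc3), against 64.3% of all genes called. DZ against SAM gave 9 of 10 called, against 69.0% of all genes. There Herpud1 (1.26), Hspa5 (1.11), Xbp1 (0.50), Dnajb9 (0.43), and Hsp90b1 (0.15) were higher in DZ, and Sdf2l1 (-0.87), Dnajc3 (-0.20), Pdia4 (-0.14), and Calr (-0.11) were lower. The Hsp90b1 call there was lost with plain read totals, at 0.048.

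The opposite movement can be read within each dish, where scaling between libraries plays no part. These pairs were chosen after their values were seen and carry no test. Hspa5 minus Calr was 0.69 +/− 0.016 on the log2 scale in CTL and 0.72 +/− 0.020 in DZ (SD, n = 3). It was 0.041 +/− 0.053 in adenine and -0.51 +/− 0.062 in SAM. As CPM is not corrected for length, only the shift of such a difference between groups is read here, not which gene was higher. Herpud1 minus Pdia4 went from 1.24 +/− 0.085 in CTL and 1.16 +/− 0.067 in DZ to 0.33 +/− 0.045 in adenine and -0.23 +/− 0.015 in SAM. Together the 10 genes took 0.296% of the reads in CTL, 0.330% in DZ, 0.312% in adenine, and 0.273% in SAM, with no overlap between groups. Unlike the differences above, this share amounts to scaling by plain read totals. With that scaling the median of all genes was 0.059 under adenine and 0.11 under SAM. The median of the 10 genes under adenine was then 0.089, against 0.027 with the normalized library sizes.

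**Figure D3:**
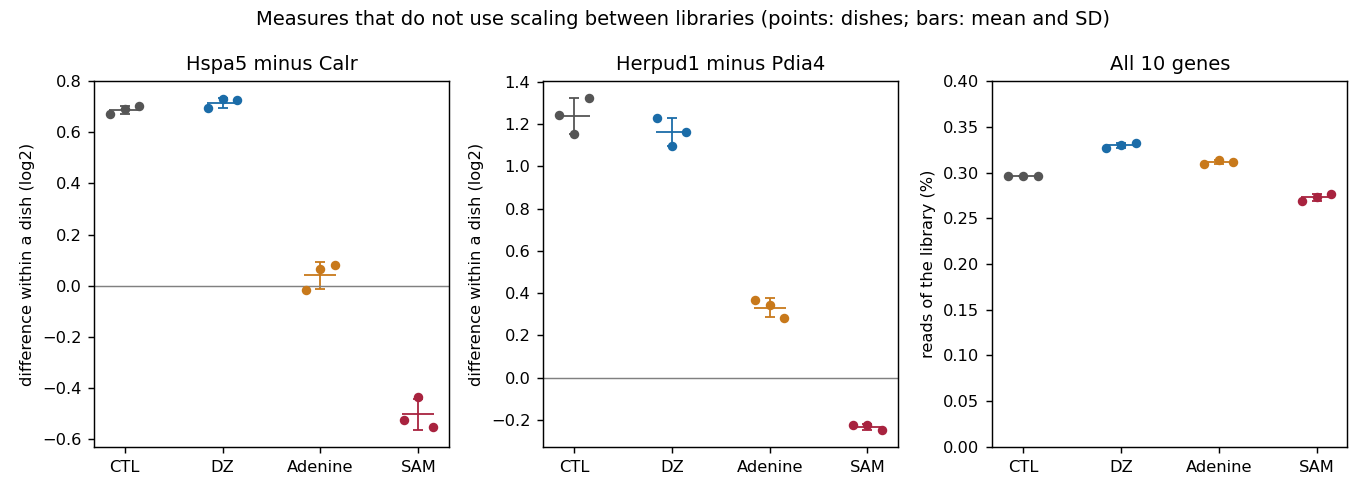
Differences within a dish between Hspa5 and Calr and between Herpud1 and Pdia4 (y axes, log2), and the share of a library's reads on all 10 genes (y axis, percent), by group (x axes). Points are dishes, and bars are the mean and SD of 3. The share of reads, unlike the differences, rests on plain read totals. The mean differences were 0.69 and 1.24 in CTL, 0.72 and 1.16 in DZ, and below 0 in SAM.

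The wider ER pathway was read from lists of genes with known roles. Of 10 UPR sensors and related factors, 8 fell and 1 rose under SAM (median -0.32), 6 fell and 4 rose under adenine (median -0.37), and 2 fell and 1 rose under DZ (median 0.014). The share lower was 80.0% under SAM and 60.0% under adenine, beside 35.7% and 31.0% of all genes. Under DZ 10.0% were higher and 20.0% lower, beside 22.6% and 23.4% of all genes. Ern1, which encodes the IRE1 that splices Xbp1, was 6.25 log2 CPM in CTL and fell by 1.07 +/− 0.053 under SAM (adjusted p 4.2e-11) and by 0.51 under adenine. Atf6 fell by 1.63 +/− 0.030 under SAM (adjusted p 6.92e-16) and by 0.98 under adenine. Rtcb, the ligase that joins the cut Xbp1 RNA, fell by 0.44 under SAM and 0.41 under adenine. None of Ern1, Atf6, and Rtcb passed under DZ, with values of -0.067, 0.031, and 0.016. Mbtps1, a protease that frees ATF6, rose under DZ and adenine (0.22 and 0.24) and fell by 0.31 under SAM. Eif2ak3, which encodes PERK, was the 1 that rose under SAM, by 0.52, and it rose by 0.31 under adenine.

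Other ER folding genes also moved both ways. Of 24 with values, 11 rose and 8 fell under SAM (median 0.025), 12 rose and 6 fell under adenine (0.10), and 9 rose and 7 fell under DZ (-0.054). Under SAM the shares higher (45.8%) and lower (33.3%) stood beside 33.7% and 35.7% of all genes. The counts under SAM thus set the list little apart. Its median under SAM turned to -0.0031 without SAM replicate 3 and to -0.014 with median centring. Under adenine 50.0% were higher and 25.0% lower, beside 30.6% and 31.0% of all genes. Under DZ 37.5% were higher and 29.2% lower, beside 22.6% and 23.4%. Like Pdia4, the disulfide isomerase P4hb rose, by 0.52 under SAM and 0.60 under adenine, and so did Pdia3, by 0.29 and 0.36. Ero1a, an oxidase that recharges P4HB, fell by 2.31 +/− 0.033 under SAM (adjusted p 4.16e-17) and by 1.06 under adenine. Its relative Ero1b, at only 1.515 log2 CPM in CTL, rose by 0.92 under SAM and 0.48 under adenine. The rise under adenine passed only narrowly (adjusted p 0.00969), and the adenine and CTL dishes of Ero1b overlapped. Hyou1, which exchanges the nucleotide of BiP, fell by 0.72 under SAM, 0.46 under adenine, and 0.20 under DZ, whereas Sil1, which has the same role, rose by 0.51 under DZ and was at -0.077 under SAM (adjusted p 0.16). In ER-associated degradation, 9 of 17 genes fell and 5 rose under both SAM (median -0.20) and adenine (-0.17), and 6 rose and 2 fell under DZ (0.071). The share lower was 52.9% under SAM and under adenine, beside 35.7% and 31.0% of all genes. Under DZ 35.3% were higher and 11.8% lower, beside 22.6% and 23.4% of all genes. In this list Derl1, a channel subunit that HERPUD1 joins, fell by 1.23 under SAM and 0.77 under adenine. Sel1l, the partner of the ubiquitin ligase HRD1, fell by 1.02 and 0.44, while it rose by 0.21 under DZ. Ube2j1, of the same list, rose by 0.27 under SAM, 0.12 under adenine, and 0.33 under DZ.

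Among 36 genes for ER entry, glycosylation, and export, 15 were higher and 6 lower under SAM, 13 and 4 under adenine, and 12 and 9 under DZ. The shares called, 58.3% under SAM and 47.2% under adenine, were below those of all genes. The shares higher, 41.7% and 36.1%, stood near the 33.7% and 30.6% of all genes. By contrast, the shares lower, 16.7% and 11.1%, were below the 35.7% and 31.0% of all genes. Under DZ 33.3% were higher and 25.0% lower, beside 22.6% and 23.4% of all genes. These counts depend on the scaling, being 24 and 3 under SAM with plain read totals and 13 and 8 with median centring. Those of all 12591 genes under SAM moved too, from 4237 higher and 4494 lower. They were 5462 and 3462 with plain read totals, and 3861 and 4888 with median centring. Kdelr2, a receptor that returns chaperones to the ER, rose by 0.62 under SAM and 0.49 under adenine, and the coat subunit Sec24d by 0.46 under both. Of the related receptors, Kdelr1 was called under neither, and Kdelr3 rose by 0.37 under SAM but was not called under adenine. Srp72, of the signal recognition particle, fell by 0.69 under SAM and 0.40 under adenine. The PERK-ATF4 list does not hold the gene of PERK itself. Of its 12 genes, 10 fell under SAM, with a median of -2.30, the lowest of all lists. Under adenine 10 fell and 1 rose (median -0.46), whereas 6 rose and 2 fell under DZ (0.14). The share lower was 83.3% under both SAM and adenine, beside 35.7% and 31.0% of all genes. Under DZ 50.0% were higher and 16.7% lower, beside 22.6% and 23.4% of all genes. Trib3, at -4.05, Atf3, at -3.79, and Ddit3, which encodes CHOP, at -2.88, were the steepest of those named under SAM.

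**Figure D4:**
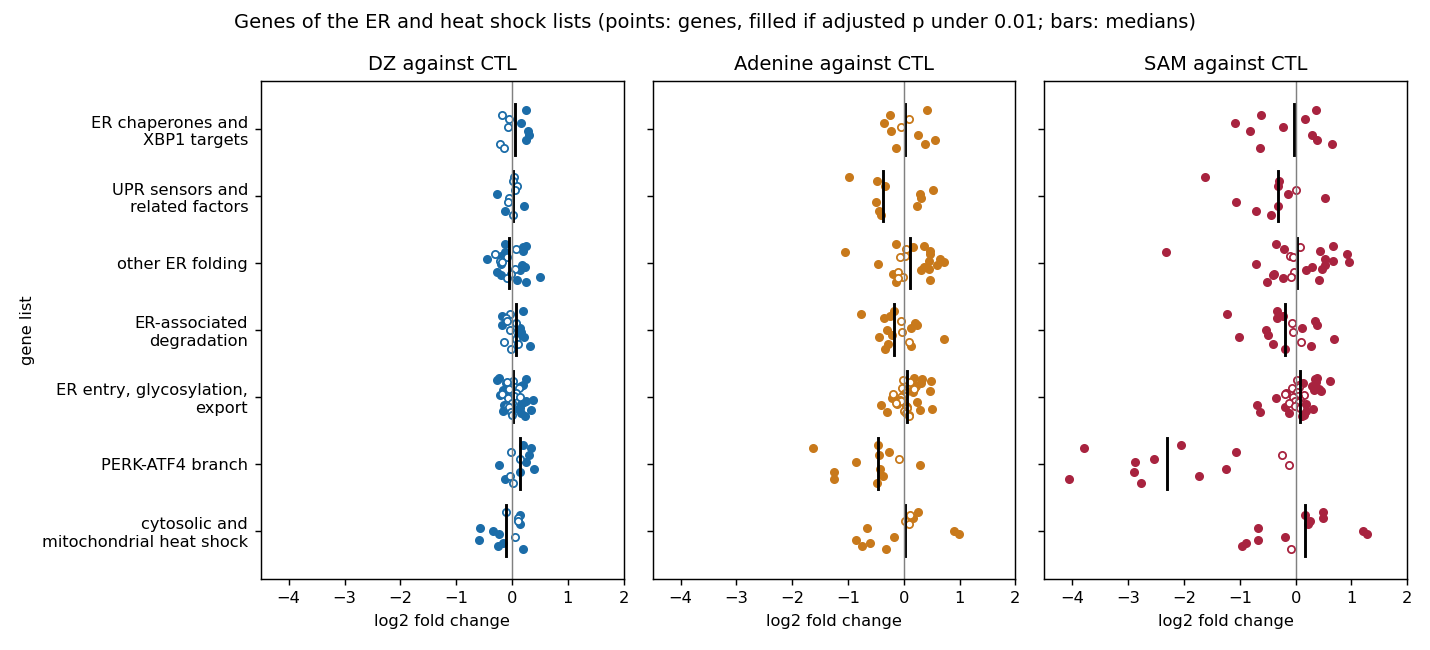
Log2 fold change against CTL (x axes) of the genes of each list (y axis) under DZ, adenine, and SAM. Points are genes, filled where the adjusted p was under 0.01, and bars are the list medians. The 10 genes spread to both sides of 0 under SAM, while the PERK-ATF4 list lay to the left with a median of -2.30.

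Over the 12 dishes, the genes outside the 10 whose levels were most like those of Hspa5 were Adm2 (Pearson r 0.998), Yars1 (0.997), Chka (0.996), Rin1 (0.995), and Ddx21 (0.995). These points share 4 group means, so r describes likeness of pattern only. Adm2, a secreted peptide of the calcitonin family, rose by 0.85 under DZ and fell by 0.76 under adenine and by 2.66 under SAM, steeper than Hspa5 in each case. Yars1, the tyrosyl-tRNA synthetase, changed by 0.49, -0.34, and -1.15. Among the 10 genes, r with Hspa5 was 0.986 for Herpud1, 0.848 for Xbp1, 0.814 for Dnajb9, and 0.764 for Hsp90b1. It was -0.201 for Manf, -0.432 for Pdia4, -0.482 for Calr, -0.897 for Dnajc3, and -0.928 for Sdf2l1.

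Of the 4 genes among the 10 with an exact ERSE match, Hspa5 and Hsp90b1 fell and Calr and Dnajc3 rose under SAM. In all, 37 genes of the RefSeq set held the element and 16 of them had values here, these 4 included. Of the 16, 11 rose and 3 fell under SAM (median 0.23), 6 rose and 3 fell under adenine (0.096), and 3 rose and 4 fell under DZ (-0.082), and with other scalings 10 to 12 rose under SAM. The share called higher was 68.8% under SAM, 37.5% under adenine, and 18.8% under DZ, beside 33.7%, 30.6%, and 22.6% of all genes. The disulfide isomerase Pdia6 (0.47 under SAM and 0.44 under adenine), Creld2 (0.68 and 0.36), and the lectin chaperone Canx (-0.35 and -0.15), called under both, are named here after their values were seen.

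Exons of 3 of the 10 genes overlap those of other genes with values, and the strand setting of the counting is not given in the sources used here. Rabepk, on the opposite strand, shares 2457 of the 5554 exon bases of Hspa5. Its own change was 0.23 under DZ and -0.051 under SAM, where it did not pass. Ccdc117, opposite to Xbp1 over 1526 bases, fell by 0.22 under DZ (adjusted p 0.00125) and by 0.22 under adenine (0.000749), in the same direction as the small differences of Xbp1 there. Under SAM it was at 0.029 (adjusted p 0.591), where Xbp1 fell by 0.64. Rbm15b shares 3962 of the 12163 exon bases of Manf on the same strand, and it fell by 0.52 under SAM and 0.32 under adenine, opposite to Manf. The levels of Hspa5, Xbp1, and Manf are uncertain to the extent that reads of these neighbours were split.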

How the data were processed

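RNA of 12 libraries, 3 dishes in each of 4 groups, was sequenced as stranded, paired-end, poly-A libraries. The authors trimmed reads with Trimmomatic, aligned them with HISAT2 to GRCm39 guided by GENCODE vM27, quantified them with StringTie, and dropped genes whose CPM was under 1 in any library. Their tool versions and the handling of reads that map to several places are not given in the sources used here. The deposited values are log2 CPM on normalized library sizes, which the authors computed with edgeR.

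Whole reads were recovered by taking off a prior count of 2, and 100% of values came out whole within 0.05. Differences were estimated with limma 3.58.1 (R 4.3.3), with the 4 groups and a variance trend fitted in 1 model, and p-values were adjusted over all 12591 genes by the Benjamini-Hochberg method (FDR 0.01). P-values measure the spread between dishes, since the labels name no separate cultures. Replicate libraries differed by more than counting noise (chi-square per degree of freedom 4.76 to 7.07, but 15.7 and 19.1 for the pairs with SAM replicate 3). The labels do not say whether same-numbered dishes were handled together. Deviations of same-numbered dishes had r from -0.142 to 0.181, which cannot settle it, and the dishes were fitted as unpaired. Positions come from GENCODE vM39 (GRCm39), where 12575 genes matched, and promoters from RefSeq (GRCm38.p6). Python 3.11.15, numpy 2.4.6, pandas 2.3.3, and matplotlib 3.10.9 were used, and the fit was tested on simulated data.

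The members and lists were chosen with earlier results of these data known. Named are all 10 members, from every list the 2 genes whose adjusted p was smallest in each comparison with CTL, and the 5 genes most like Hspa5 among those whose mean reached 3 log2 CPM. Not every gene this rule picks is printed. Eif2ak3, Ero1b, Kdelr1, and Kdelr3 lie outside the rule and were named after their values were seen. Tried as alternatives were robust empirical Bayes, no variance trend, a filter at a mean of 3, a pseudocount of 1 CPM, median centring, plain read totals, voom on the reads, an FDR of 0.05, only the groups compared, a replicate block, leaving out each library, and, for levels per kilobase, mean transcript length.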

Additional observations from a re-analysis of the deposited data

How the results depend on the processing

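Of 954 member values recomputed under an alternative, 916 kept their direction and side of the threshold, 18 lost a call, 11 gained one, and 9 changed sign. For other named genes these were 1348, 36, 2, and 6 of 1392. All sign changes were of values that had not passed. The count of members lower under DZ, 0, became 1 with median centring, 2 with only the 2 groups compared, and 3 at an FDR of 0.05. The count lower under adenine, 4, became 2 with plain read totals and lay between 2 and 4 when 1 dish was left out. The count higher in SAM than in adenine, 0, became 1 with plain read totals and at an FDR of 0.05.

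With plain read totals the sign changed for Hsp90b1 under adenine (0.0188), Xbp1 in DZ minus adenine (-0.0272), Calr in SAM minus adenine (0.0198), Manf in DZ minus SAM (-0.0806), and Sil1 under adenine (0.0478) and SAM (0.0451). With median centring it changed for Hsp90b1 in DZ minus adenine (0.00483) and Vldlr, an ATF4 target, under DZ (-0.000674). When 1 dish was left out, ranges spanned 0 for Xbp1 in DZ minus adenine (-0.031 to 0.0548), Manf in SAM minus adenine (-0.0215 to 0.0617) and in DZ minus SAM (-0.0189 to 0.0643), Sil1 under adenine (-0.0409 to 0.0318), and Vldlr under DZ (-0.000462 to 0.027). The cause was not tested.

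With the replicate block, 5762 genes were called under DZ, 7739 under adenine, and 8734 under SAM, against 5782, 7753, and 8731 without it, and the counts of members were the same. Plain read totals moved the share of higher genes among all calls in SAM minus adenine from 48.6% to 63.2% and in DZ minus SAM from 50.8% to 40.8%. Depth limits little here, as each member had at least 204 reads in every dish. With 3 dishes a group, an exact permutation test of a single gene cannot give a p below 0.10.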

Other observations

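Chaperones of the cytosol and mitochondria, relatives of those in the ER, also moved both ways. Of 13 genes of the cytosolic and mitochondrial heat shock list, 7 rose and 5 fell under SAM (median 0.17), 4 rose and 6 fell under adenine (0.017), and 3 rose and 6 fell under DZ (-0.10). The shares called, 92.3%, 76.9%, and 69.2%, stood beside 69.3%, 61.6%, and 45.9% of all genes. Hspa8, the constitutive Hsp70 of the cytosol, fell by 0.59 under DZ, 0.86 under adenine, and 0.68 under SAM, and Hsp90ab1, the constitutive Hsp90, by 0.57, 0.67, and 0.68. Thus Hspa8 fell under DZ, where its ER relative Hspa5 rose by 0.29. Hspd1, the mitochondrial chaperonin, fell by 0.17, 0.61, and 0.90. Hspa1b, a heat-inducible Hsp70, was higher by 1.28 under SAM and by 1.00 under adenine and fell by 0.24 under DZ, and its reads are uncertain because Hspa1a is nearly identical.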
